A study of Homo sapiens with 4 samples.

Results

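The genes described here are those in which hydroxyurea and MS-275 together gave another mRNA level than the 2 drugs given alone add up to. HCT116, a human colorectal carcinoma cell line, received both drugs (1 mM hydroxyurea plus 2 µM MS-275), hydroxyurea only at 1 mM, MS-275 only at 2 µM, or no drug, each for 24 h, and RNA of each of these 4 conditions was hybridised to 1 Affymetrix Human Gene 2.0 ST array. For every gene, the log2 difference of each drug alone against untreated cells was added up and subtracted from the log2 difference of both drugs against untreated cells. This value, called non-additivity, is 0 where the drugs multiply each other's fold changes without loss or gain, positive where the level with both drugs exceeded that product, and negative where it fell short of it. Of 7646 genes whose mean over the 4 arrays reached an intensity of 90.5, 208 lay at least 1.5-fold above the expected level, which is 2.72% of them, and 120 lay at least 1.5-fold below it, which is 1.57%. These 328 members were chosen by their non-additivity, which uses all 4 arrays, so their values are a description and no p-value is given. With 1 array per condition no value has a replicate check, and the cells are 1 line in 1 culture per condition as far as the labels say.

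Over all 7646 genes the median non-additivity was 0.02 and its robust SD was 0.25 on the log2 scale. These values do not show that responses added up, since a gene that neither drug changes also lies near 0. Hydroxyurea alone was 1.5-fold above untreated cells in 3.13% of the genes and below in 1.27%. For MS-275 alone these shares were 6.93% and 6.84%. Of the members, 135 lay within 1.6-fold of additivity, 13 lay at least 2-fold above it and 13 at least 2-fold below it. The edge of the selection is therefore densely filled. ZNF462, SLIT2 and QTMAN lay just inside it, all at 0.59, and ESCO2, SHCBP1 and SKA3 just outside it, all at 0.58. On the lower side, ABHD15, CMTM7 and TRIM66 lay just inside at -0.59, and PLK3, DCXR and TSPAN9 just outside at -0.58. By intensity, the dimmest 2549 genes, up to 173, held 82 above and 53 below, the middle 2548 held 59 and 42, and the brightest 2549, from 355, held 67 and 25. Genes below additivity were thus fewer in each brighter group, whereas genes above were fewest in the middle one. The median intensity of all 53617 transcript clusters lay between 45.9 with both drugs and 47.1 with MS-275. Of 8 marker genes of colon epithelium and carcinoma, 7 were named on the array and 4 passed the filter. EPCAM, KRT8, KRT18 and KRT19 passed it, whereas the intestinal genes VIL1, CDX1 and CDX2 did not. Of 14 fibroblast, leukocyte and endothelial marker genes, 7 were named and only CD68 passed it.

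Hydroxyurea inhibits ribonucleotide reductase, so that cells run short of deoxyribonucleotides and replication forks stall. ATR and ATM then activate the checkpoint kinases and p53, which HCT116 cells carry in intact form. MS-275 (entinostat) is a benzamide that blocks histone deacetylases of class I, chiefly HDAC1 to HDAC3, and such inhibitors arrest many cell types in G1. Genes of DNA replication are switched on by E2F factors at the entry into S phase, and genes of mitosis by the MuvB complexes, which bind the letters TTTGAA of the cell cycle genes homology region (CHR), often together with NF-Y at CCAAT boxes. Transcripts of both classes are therefore scarce in arrested G1 cells and plentiful in S and G2 phase. In bulk RNA, a lower share of cells in a phase and less RNA per cell cannot be told apart.

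The promoter stretches of 7 members above additivity are shown because these letters stand in them. Each is the 150 bases before the start of transcription, 5′ to 3′ on the strand of the gene, from RefSeq on GRCh38.p14. Capitals mark letters found on either strand. They are those of the CHR as given above, those of the box named CCAAT, and E2F-like letters, which are TTTCCCGC, TTTCGCGC, TTTGCCGC or TTTGGCGC. KIF11, KIF18A, INCENP and KIF15, genes of spindle motors and of the chromosomal passenger complex, hold CHR letters. GINS2 holds E2F-like letters, MCM10 holds CCAAT letters, and ULBP2, a ligand gene of the immune receptor NKG2D, holds E2F-like and CCAAT letters. These genes were picked after their values and letters had been seen.
KIF11: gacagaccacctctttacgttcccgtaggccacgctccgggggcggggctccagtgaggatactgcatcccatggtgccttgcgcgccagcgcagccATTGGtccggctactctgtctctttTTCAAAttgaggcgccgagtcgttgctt (chr10:92592980-92593129, plus strand)
KIF18A: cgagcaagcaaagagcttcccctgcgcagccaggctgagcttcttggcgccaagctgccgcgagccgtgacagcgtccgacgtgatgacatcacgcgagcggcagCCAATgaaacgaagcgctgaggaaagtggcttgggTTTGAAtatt (chr11:28108157-28108306, minus strand)
INCENP: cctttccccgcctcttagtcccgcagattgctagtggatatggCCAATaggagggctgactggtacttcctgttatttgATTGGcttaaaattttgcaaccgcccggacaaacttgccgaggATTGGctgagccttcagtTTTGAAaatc (chr11:62123861-62124010, plus strand)
KIF15: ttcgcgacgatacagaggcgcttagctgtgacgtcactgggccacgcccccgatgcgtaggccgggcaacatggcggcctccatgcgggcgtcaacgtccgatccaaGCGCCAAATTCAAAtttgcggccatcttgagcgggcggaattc (chr3:44761644-44761793, plus strand)
GINS2: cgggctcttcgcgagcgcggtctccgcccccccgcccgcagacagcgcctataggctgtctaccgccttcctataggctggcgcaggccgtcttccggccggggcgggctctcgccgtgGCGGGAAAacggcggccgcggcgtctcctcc (chr16:85688955-85689104, minus strand)
MCM10: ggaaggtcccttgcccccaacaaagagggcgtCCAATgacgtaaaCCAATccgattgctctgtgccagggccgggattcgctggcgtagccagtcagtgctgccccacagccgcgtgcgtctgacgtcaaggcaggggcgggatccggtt (chr10:13161408-13161557, plus strand)
ULBP2: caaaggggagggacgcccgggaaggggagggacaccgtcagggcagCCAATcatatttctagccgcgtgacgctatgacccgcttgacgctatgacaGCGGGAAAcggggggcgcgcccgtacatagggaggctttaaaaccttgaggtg (chr6:149941864-149942013, plus strand)

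Across all members, promoters from RefSeq were matched to 163 of the 208 genes above additivity and to 79 of the 120 below it. Within the 250 bases before and 50 bases after the first listed start, 22.7% of the promoters of genes above additivity held CHR letters, against 5.06% of those below it and 9.56% of 6107 genes past the filter. For CCAAT the shares were 53.4% above, 32.9% below and 36.9% of all genes past the filter. E2F-like letters stood in 12.3% of the promoters above, in 2.53% of those below and in 5.78% of all. The GC box letters GGGCGG did not follow this order, with 73.6%, 73.4% and 73.7%. Of all 27305 listed promoters, 15.4% held CHR, 35.7% CCAAT, 3.33% E2F-like and 44.6% GC box letters. No overlap of one set of letters with another was removed. A match is a match of letters and does not say that a factor binds there.

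**Figure D1:**
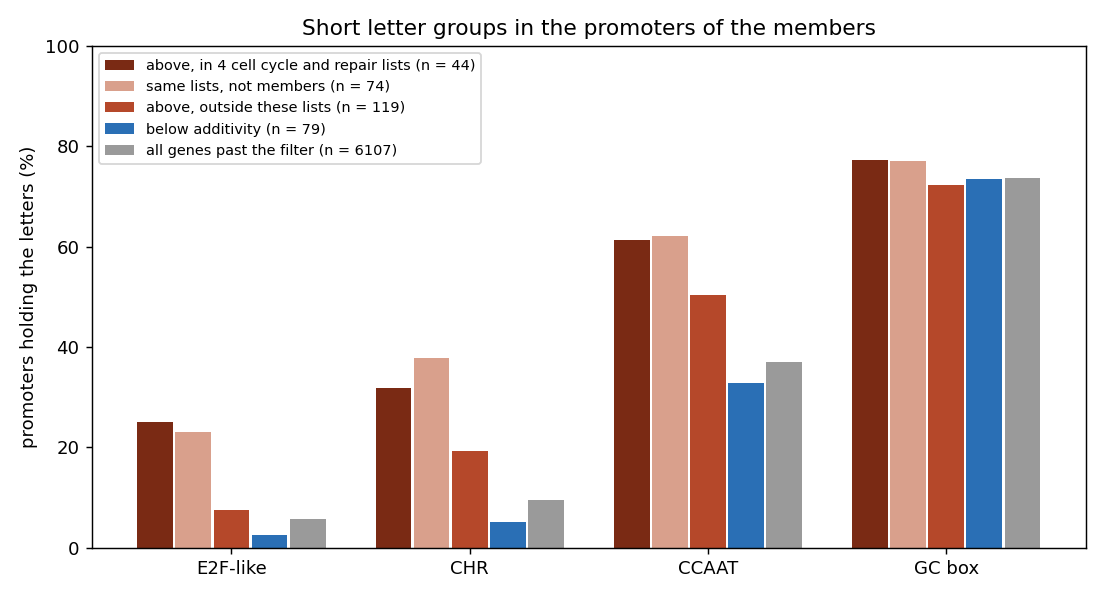
Share of promoters (%, 250 bases before to 50 after the first listed start) that hold each set of letters, for genes above additivity inside and outside 4 cell cycle and repair lists, list genes that are not members, genes below additivity and all genes past the filter. Within the lists, members and other genes differed little (CHR 31.8% and 37.8%), and genes below additivity had the lowest share of CHR letters (5.06%).

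Within the lists, members and other genes held CHR letters in similar shares. Among genes of 4 lists, those of DNA replication, mitosis, homologous recombination and checkpoint kinases, CHR letters stood in 31.8% of 44 promoters of members and in 37.8% of 74 promoters of list genes that were not members. Outside these lists, 19.3% of 119 promoters of members above additivity held them.

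The genes above additivity were led by the cell cycle. In all, 137 genes of the 4 lists passed the filter, and 49 of them lay above additivity, against 2.72% of all genes, and 0 below it, against 1.57%. Their median non-additivity was 0.49, against 0.02 over all genes, and 125 of the 137 had a value above 0, as had 54.2% of all genes. Since these lists were chosen with results of the same arrays known, the counts describe them and give no separate evidence. MS-275 alone was at least 1.5-fold lower than untreated cells for 81 of the 137 genes, where 6.84% of all genes past the filter were, and the median log2 difference was -0.66. With hydroxyurea present, the level with both drugs was 1.5-fold below that with hydroxyurea for 8 of the 137, where 5.41% of all genes were, and the median was -0.19. These differences share no array, but both enter the non-additivity.

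**Figure D2:**
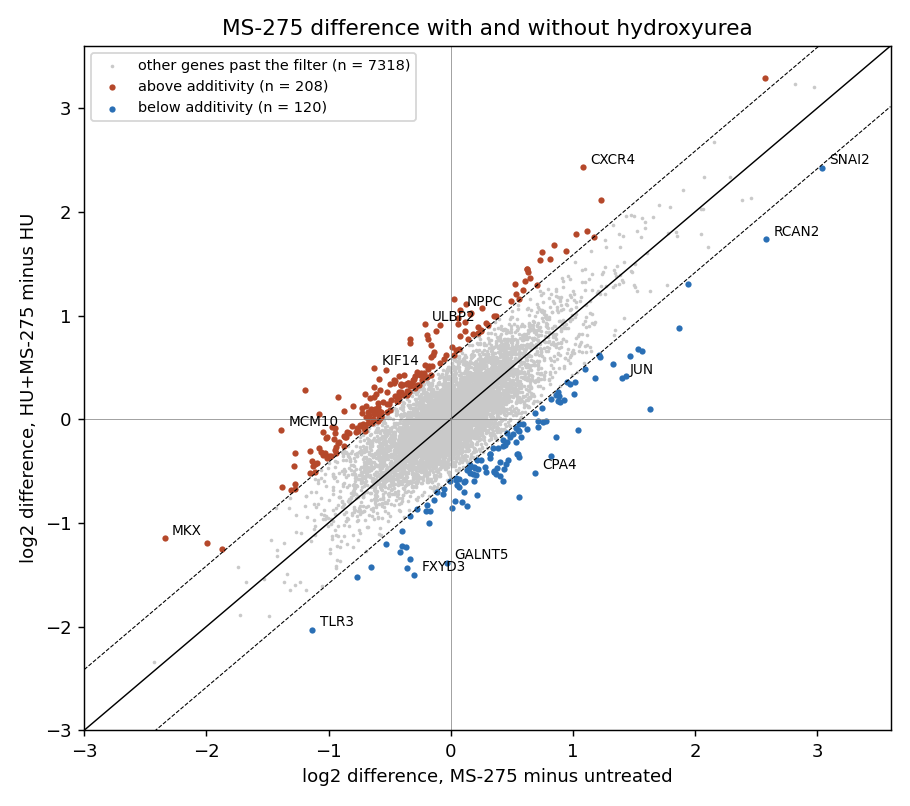
Log2 difference of MS-275 in the presence of hydroxyurea (both drugs minus hydroxyurea, vertical) against that in its absence (MS-275 minus untreated, horizontal) for 7646 genes. The solid line is additivity, the dashed lines are 1.5-fold from it, the 208 genes above are red and the 120 below are blue, and most red points lie left of 0 and near 0 on the vertical axis.

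Of 30 genes of DNA replication and the G1/S transition, all 30 had a value above 0, as had 54.2% of all genes. Above additivity lay 8, against 2.72% of all genes, and the median was 0.44. MCM10, an initiation factor that links the replicative helicase to DNA polymerase, had an intensity of 655 with both drugs, 704 with hydroxyurea, 238 with MS-275 and 621 in untreated cells. Its expected level was 269, so that the measured one was 2.43-fold higher, a non-additivity of 1.28. Only the MS-275 array was low, and the other 3 lay close together. SLBP, whose product binds the stem loop of histone mRNAs, had 2411 with both drugs, 2086 with hydroxyurea, 1254 with MS-275 and 1985 in untreated cells. WDHD1, which couples the helicase to DNA polymerase alpha, had 457 with both drugs, 554 with hydroxyurea, 251 with MS-275 and 529 in untreated cells. Again the MS-275 array stood alone. GINS2, a subunit of the replicative helicase, had 915 with both drugs, 1072 with hydroxyurea, 495 with MS-275 and 938 in untreated cells.

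Other replication genes were above untreated cells when hydroxyurea was present. CDC6, which loads the MCM helicase at origins, had 1826 with both drugs and 1817 with hydroxyurea, against 755 with MS-275 and 1209 in untreated cells. DSCC1, part of a clamp loader for sister chromatid cohesion, had 578 with both drugs, 632 with hydroxyurea, 189 with MS-275 and 365 in untreated cells. In both genes the arrays with hydroxyurea were high whether or not MS-275 was there. The helicase subunit gene MCM3 and UHRF1, a reader of half-methylated DNA in maintenance methylation, completed the 8, both at 0.63. Their levels with both drugs stayed below those with hydroxyurea, by 0.52 and 0.38 on the log2 scale. Among genes that were not members, MCM5 had a non-additivity of 0.57 and MCM2 of 0.45. CDC7, the kinase that fires origins, and E2F2 were nearest to 0, at 0.02 and 0.04. Of 12 genes of nucleotide supply, none was a member and the median was 0.09, and RRM2, a subunit of ribonucleotide reductase, was at 0.40.

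Of 69 genes of mitosis, 27 lay above additivity, against 2.72% of all genes. A value above 0 was found in 67, against 54.2% of all genes, and the median was 0.50. NDC80, which ties microtubules to the outer kinetochore, had 523 with both drugs, 654 with hydroxyurea, 251 with MS-275 and 607 in untreated cells. TTK, the MPS1 kinase of the spindle checkpoint, had 788 with both drugs, 601 with hydroxyurea, 445 with MS-275 and 669.8 in untreated cells. SGO1, which protects centromeric cohesin, had 631 with both drugs, 598 with hydroxyurea, 358 with MS-275 and 656 in untreated cells. In these 3 genes the level with MS-275 was the lowest of the 4. KIF14, a kinesin of cytokinesis, had 517 with both drugs, 368 with hydroxyurea, 318 with MS-275 and 491 in untreated cells. Here each drug alone was lower than untreated cells, by 0.42 for hydroxyurea and 0.63 for MS-275 on the log2 scale, while both drugs together were level with untreated cells. NEK2, a kinase of centrosome separation, had 591 with both drugs, 425 with hydroxyurea, 336 with MS-275 and 484 in untreated cells.

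Of the 27 mitotic members, 12 were highest with both drugs, TTK, KIF14 and NEK2 among them, and in 3 the array with both drugs stood apart. CENPI, a subunit of the inner kinetochore, had 829 with both drugs, 484 with hydroxyurea, 426 with MS-275 and 484 in untreated cells. SGO2, the other shugoshin, had 354 with both drugs, 197 with hydroxyurea, 239 with MS-275 and 259 in untreated cells. BUB1, a spindle checkpoint kinase, had 1204 with both drugs, 926 with hydroxyurea, 910.3 with MS-275 and 1074 in untreated cells. These are the 3 genes in which both drugs stood apart, by the rule given further on. Genes near these in function but in no list were members as well. HASPIN, the kinase that marks histone H3 at centromeres, had 528 with both drugs, 512 with hydroxyurea, 215 with MS-275 and 454 in untreated cells. CENPQ, of the inner kinetochore, had 395 with both drugs, 324 with hydroxyurea, 139 with MS-275 and 208 in untreated cells. GPSM2, which orients the spindle, had 572 with both drugs, 302 with hydroxyurea, 426 with MS-275 and 409.6 in untreated cells. So the pattern was not the same in every mitotic gene: MS-275 gave the lowest level of HASPIN and CENPQ, and hydroxyurea the lowest level of GPSM2.

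PLK4, the kinase of centriole duplication, was at 0.92, and the centriole genes STIL, SASS6 and CPAP, named after their values were seen, were at 0.65, 0.68 and 0.67. By symbol, 7 of 29 kinesin genes, 5 of 16 CENP genes and 3 of 10 MCM genes past the filter lay above additivity, against 2.72% of all genes, and none below it, against 1.57%. Of the 69, only SKA2, at -0.10, and CDC25B, at -0.12, had a value below 0. PLK1 and CCNB1, which drive entry into mitosis, were not members, at 0.40 and 0.41.

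**Figure D3:**
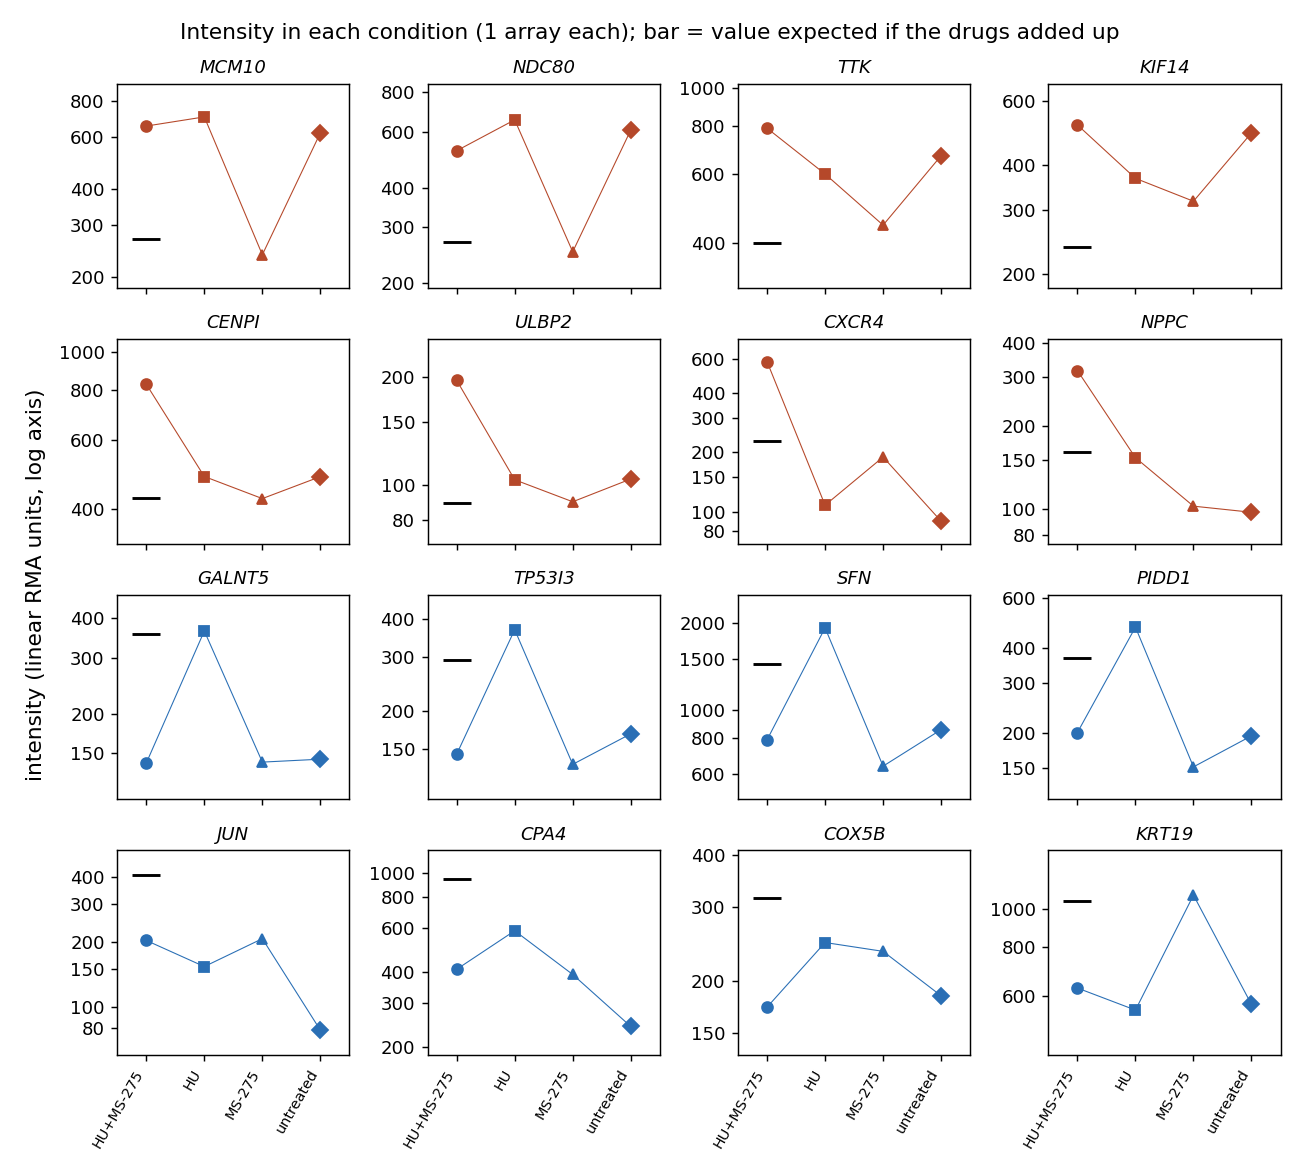
Intensity (linear RMA units on a log axis) of 16 members on each of the 4 arrays, with the level expected from the drugs alone as a black bar over both drugs. The first 8 genes lie above their bar and the last 8 below it, and MCM10 (655 with both drugs, 269 expected) and GALNT5 (139.7 with both drugs, 357 expected) are examples of either side.

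Of 20 genes of homologous recombination and the Fanconi anaemia pathway that passed the filter, 7 lay above additivity, against 2.72% of all genes, and the median was 0.39. A value above 0 was found in 15 and one below 0 in 5, the lowest at -0.23. RAD54B, a DNA translocase of homologous recombination, had 587 with both drugs, 498 with hydroxyurea, 264 with MS-275 and 402 in untreated cells. XRCC2, which acts in the repair of double-strand breaks, had 620.2 with both drugs, 693 with hydroxyurea, 298 with MS-275 and 547 in untreated cells. BRIP1, a helicase that binds BRCA1, had 1008 with both drugs, 1279 with hydroxyurea, 459 with MS-275 and 944 in untreated cells. The level with MS-275 was the lowest in each. EXO1, an exonuclease of DNA end resection, had 609 with both drugs, 747 with hydroxyurea, 211 with MS-275 and 406 in untreated cells. RAD51AP1 had 182 with both drugs, 291 with hydroxyurea, 73.0 with MS-275 and 181 in untreated cells, so that both drugs together were back at the level of untreated cells. BARD1, the partner of BRCA1, was at 0.67 and the translocase gene RAD54L at 0.60. Outside the list, DCLRE1A, a nuclease of interstrand crosslink repair, was at 0.89 and AUNIP at 0.95.

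Of 18 checkpoint genes past the filter, 7 lay above additivity, against 2.72% of all genes, and the median was 0.39. Values were above 0 in 13 and below 0 in 5, the lowest at -0.27. WEE1, the kinase that holds CDK1 inactive, had 721 with both drugs, 988 with hydroxyurea, 404 with MS-275 and 982 in untreated cells. CHEK2, which encodes CHK2, had 183 with both drugs, 168 with hydroxyurea, 105 with MS-275 and 170.3 in untreated cells. CLSPN encodes claspin, the adaptor through which ATR reaches CHK1, and had 326 with both drugs, 305 with hydroxyurea, 141 with MS-275 and 222 in untreated cells. MS-275 alone was below untreated cells in all 3, by 1.28 for WEE1, 0.69 for CHEK2 and 0.65 for CLSPN on the log2 scale. TOPBP1, an activator of ATR, was at 0.68, and the phosphatase gene CDC25A at 0.63. RAD17, which loads the checkpoint clamp, differed from these: it had 341 with both drugs, 238 with hydroxyurea, 305 with MS-275 and 345 in untreated cells, so that the hydroxyurea array was the low one. TIPIN, of the fork protection complex, was at 0.59. CHEK1 was not a member, at 0.44, and RAD1 and MDC1 were nearest to 0, both at -0.03.

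**Figure D4:**
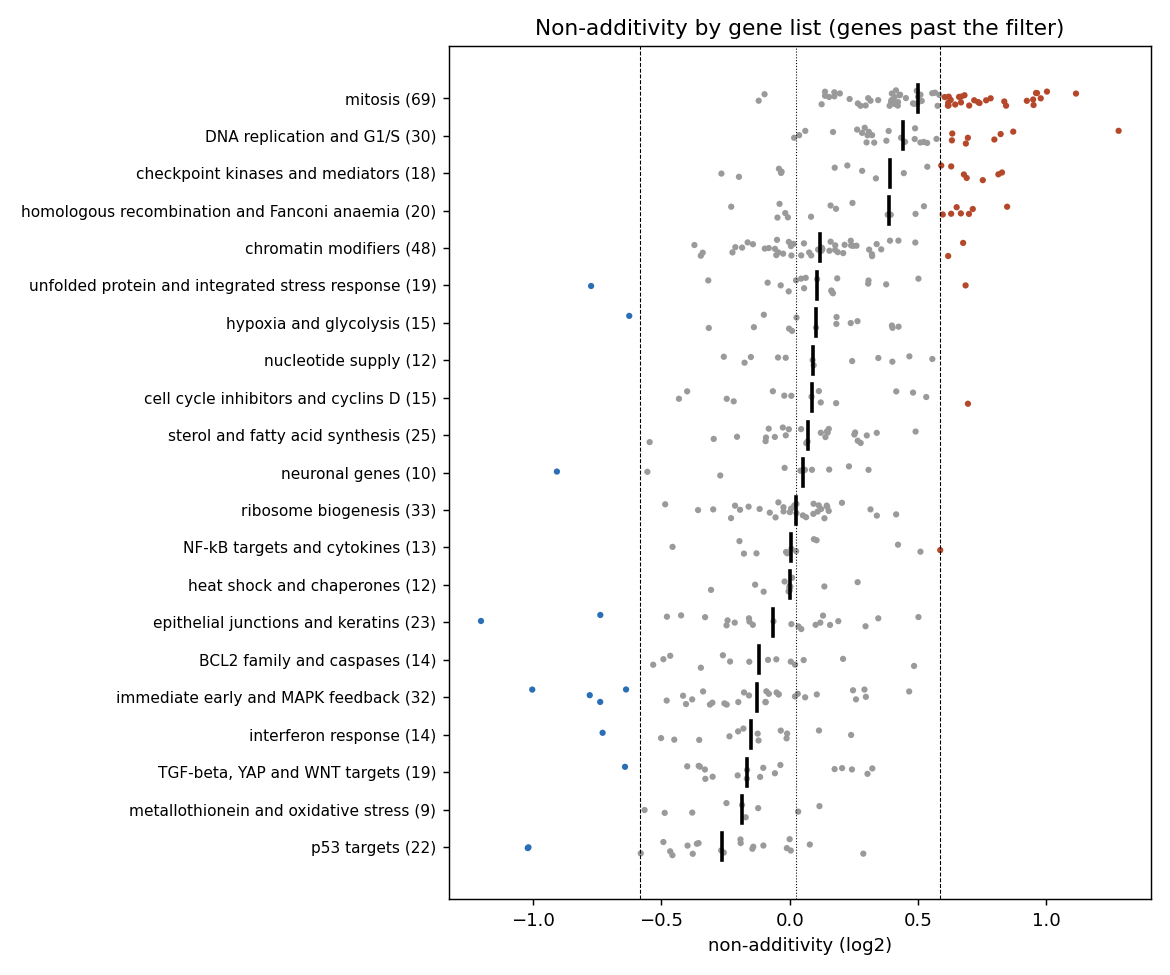
Non-additivity (log2) of every gene past the filter in the lists with at least 9 such genes, with the list median as a black tick, members above in red and below in blue, dashed lines at 1.5-fold and a dotted line at the median of all genes. The 4 cell cycle and repair lists have medians between 0.39 and 0.50, and the p53 targets have the lowest median, at -0.26.

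Which array stood apart was read for every member: an array was taken as apart where the other 3 spanned at most 1/2 of the non-additivity. Among the 208 genes above additivity, MS-275 stood apart in 67, both drugs in 25, hydroxyurea in 17 and untreated cells in 14, and in 85 no array did. In the lists of the cell cycle and repair, MS-275 stood apart in 24 of the 49 members, both drugs in 3 and hydroxyurea in 1. A single deviating array gives non-additivity whatever caused it, and an array effect and a drug effect cannot be told apart here.

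**Figure D5:**
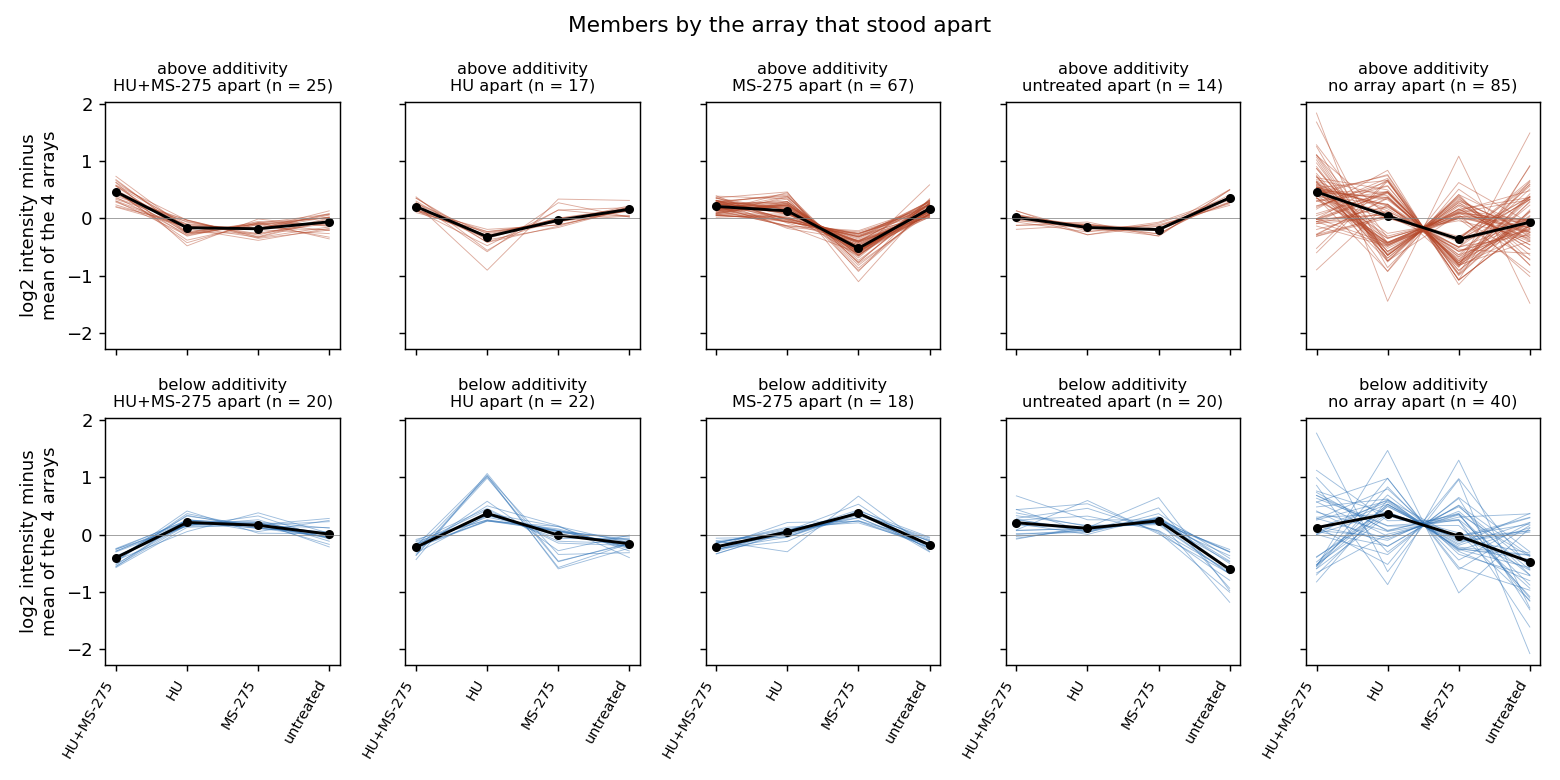
Log2 intensity of each member on the 4 arrays, relative to its own mean, in panels by direction and by the array that stood apart, with the median in black. Above additivity the fullest single-array panel is MS-275 with 67 genes, all of them low there, and below additivity the single-array panels hold 18 to 22 genes each.

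MS-275 alone gave a level 1.5-fold or more below that of untreated cells in 86 of the 208 genes, where 6.84% of all genes past the filter were, and 18 were higher, against 6.93%. With hydroxyurea alone 17 were lower, against 1.27% of all, and 10 were higher, against 3.13%. Both drugs were 1.5-fold above MS-275 alone in 113, against 4.84% of all, and in none below it, against 1.03%. They were above hydroxyurea alone in 59, against 8.66%, and below it in 7, against 5.41%. All of these arrays entered the rule, and nothing is read from the shares. Of the 86 genes that were lower with MS-275 alone, 79 were not past 1.5-fold with hydroxyurea present. The rule itself favours this, because the difference of MS-275 with hydroxyurea exceeds that without it by the non-additivity. Altogether 146 of the 208 genes lay within 1.5-fold of untreated cells when both drugs were given. Of the others, 49 were higher, against 11.7% of all genes past the filter, and 13 were lower, against 6.84%. A level within 1.5-fold of untreated cells was thus less frequent among these members than among all genes.

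The genes with both drugs apart were few but varied. ULBP2, a ligand that marks stressed cells for natural killer cells, had 196 with both drugs, 104 with hydroxyurea, 90.0 with MS-275 and 104 in untreated cells. Its relative ULBP1, named after its value was seen, had 213 with both drugs, 178 with hydroxyurea, 136 with MS-275 and 195 in untreated cells, so that for ULBP1 MS-275 was the low array. NCOA7, a coactivator of nuclear receptors, had 359.6 with both drugs, 205 with hydroxyurea, 204 with MS-275 and 234 in untreated cells. ULBP2 and NCOA7 were thus near untreated cells under either drug and higher only under both. TESK2, a kinase that acts on cofilin, had 268 with both drugs, 124 with hydroxyurea, 172 with MS-275 and 157 in untreated cells. The zinc finger gene ZNF808 had 328 with both drugs, 175 with hydroxyurea, 224 with MS-275 and 237 in untreated cells. ASNS, the asparagine synthetase of the amino acid response, had 402 with both drugs, 295 with hydroxyurea, 291 with MS-275 and 344 in untreated cells. BEND7 had 222 with both drugs, 145 with hydroxyurea, 116 with MS-275 and 129 in untreated cells. These 3 genes were again highest with both drugs. LYRM7, an assembly factor of respiratory complex III, was at 0.75. FNIP2, a partner of folliculin, was at 0.91 and also highest with both drugs, but no array stood apart in it. In all, 26 of the 208 genes were at least 1.5-fold above each of the other 3 arrays.

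The highest value of a protein-coding gene came from CXCR4, the receptor of the chemokine CXCL12. It had 579 with both drugs, 108 with hydroxyurea, 189 with MS-275 and 89.2 in untreated cells, where 228 was expected, so that the measured level was 2.54-fold higher and the non-additivity was 1.34. MS-275 alone was 1.09 above untreated cells on the log2 scale and hydroxyurea 0.27, whereas both drugs were 2.70 above. NPPC, which encodes C-type natriuretic peptide, had 318 with both drugs, 153 with hydroxyurea, 102 with MS-275 and 97.0 in untreated cells. CXCR4 and NPPC were thus higher with both drugs than with either, and their levels in untreated cells lay near the filter. TIMP3, an inhibitor of matrix metalloproteinases, had 361 with both drugs, 118 with hydroxyurea, 214 with MS-275 and 127 in untreated cells. MKX, a homeobox gene of tendon, ran the other way, with 120.1 with both drugs, 266 with hydroxyurea, 124 with MS-275 and 630.3 in untreated cells. Each drug alone was below untreated cells in MKX, and hydroxyurea made no further difference once MS-275 was there, since both drugs were -0.05 from MS-275 alone.

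Further genes above additivity belonged to other classes. Of 48 chromatin modifiers, EZH2, the methyltransferase of PRC2, at 0.62, and TET1, a methylcytosine dioxygenase, at 0.68, were members. That is 4.17% above additivity, against 2.72% of all genes, and the list median was 0.12. FBXO5, the inhibitor EMI1 of the anaphase-promoting complex, was at 0.69. It was the 1 member among 15 cell cycle inhibitors and cyclins D, which is 6.67%, against 2.72% of all genes. IL18, a cytokine, was at 0.59 and the 1 member among 13 NF-κB targets, which is 7.69%, against 2.72%. Of 243 zinc finger genes with the symbol ZNF, 12 lay above additivity, which is 4.94%, against 2.72% of all genes. Below it lay 3, which is 1.23%, against 1.57%. TYW1 had 127 with both drugs, 76.6 with hydroxyurea, 89.0 with MS-275 and 112 in untreated cells, and its near-identical copy TYW1B had 154 with both drugs, 90.1 with hydroxyurea, 109.6 with MS-275 and 138 in untreated cells. Their probes may read the same transcript of this tRNA-modifying enzyme, and so they count as 1 uncertain pair. Where untreated cells stood apart, as in IQCE and HNRNPA0, each drug alone gave a lower level, with HNRNPA0 at 626 with both drugs, 496 with hydroxyurea, 571 with MS-275 and 755 in untreated cells. ZNF507, ZNF704, G2E3, TTC8, PMFBP1 and GSTO1 were likewise highest in untreated cells, at 0.75, 0.63, 0.73, 0.66, 0.67 and 0.60. ACSM3, BTBD8, CASC2, ZNF329 and ZNF691 were lowest with hydroxyurea alone, at 0.82, 0.67, 0.66, 0.63 and 0.62. CCDC18 and ZNF107 were lowest with MS-275 alone, and CCDC18 had 171 with both drugs, 147 with hydroxyurea, 87.2 with MS-275 and 165 in untreated cells.

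Genes below additivity had no single leading class among the listed functions, though 18 of the 120 were microRNA genes, described further on. Of the 120, hydroxyurea stood apart in 22, both drugs in 20, untreated cells in 20 and MS-275 in 18, and no array did in 40. At least 1.5-fold above untreated cells were 44 with hydroxyurea alone, against 3.13% of all genes past the filter, and 38 with MS-275 alone, against 6.93%, and 23 genes were among both. Below untreated cells were 0 with hydroxyurea, against 1.27%, and 3 with MS-275, against 6.84%. With both drugs, 36 were below hydroxyurea alone, against 5.41% of all, and 9 above it, against 8.66%. Both drugs were below MS-275 alone in 21, against 1.03%, and above it in 6, against 4.84%. Again these arrays entered the rule. With both drugs, 72 of the 120 genes lay within 1.5-fold of untreated cells. Of the others, 33 were higher, against 11.7% of all genes past the filter, and 15 were lower, against 6.84%. Here too a level within 1.5-fold of untreated cells was less frequent than among all genes.

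A first pattern was a gene that was high with hydroxyurea alone. GALNT5, which starts mucin-type O-glycans, had 139.7 with both drugs, 364 with hydroxyurea, 141 with MS-275 and 144 in untreated cells. FXYD3, a regulator of the sodium pump in epithelia, had 103 with both drugs, 291 with hydroxyurea, 101 with MS-275 and 124 in untreated cells. TP53I3, a p53 target that encodes a quinone oxidoreductase, had 144 with both drugs, 368 with hydroxyurea, 133 with MS-275 and 168 in untreated cells. In all 3 genes the hydroxyurea array alone was high, and with MS-275 present the difference of hydroxyurea was near 0, at -0.01 for GALNT5, 0.03 for FXYD3 and 0.11 for TP53I3 on the log2 scale. PIDD1, the p53-induced scaffold of the PIDDosome, had 201 with both drugs, 472 with hydroxyurea, 152 with MS-275 and 195 in untreated cells. SFN, which encodes 14-3-3σ, a p53 target that holds cells in G2, had 788 with both drugs, 1918 with hydroxyurea, 639 with MS-275 and 855 in untreated cells. For PIDD1 and SFN a difference of hydroxyurea of 0.40 and 0.30 remained in the presence of MS-275, against 1.27 and 1.17 without it. TLR3, a receptor for double-stranded RNA, had 80.2 with both drugs, 328 with hydroxyurea, 58.4 with MS-275 and 128 in untreated cells, so that MS-275 alone was below untreated cells as well. PTAFR, the receptor of platelet-activating factor, had 235 with both drugs, 314 with hydroxyurea, 107 with MS-275 and 81.0 in untreated cells. PTAFR was thus higher with hydroxyurea in the presence of MS-275 too, and no array stood apart in it. SERTAD1, TMEM238, CCNP and ANKRD33B were also highest with hydroxyurea alone, at -0.71, -0.83, -0.82 and -0.71, as was RNF43, a ubiquitin ligase that damps WNT signalling, at -0.64.

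PIDD1 and SFN are p53 targets but were in no list. Among 22 listed p53 targets past the filter, 2 lay below additivity, against 1.57% of all genes, and 0 above it, against 2.72%. A value below 0 was found in 19, where 54.2% of all genes had one above 0. The median was -0.26, the lowest of all lists with at least 9 genes. On its own, hydroxyurea was 1.5-fold above untreated cells for 11 of the 22, against 3.13% of all genes, with a median of 0.63. In the presence of MS-275 it was so for 3, against 4.84% of all, with a median of 0.41. The other member, TP53INP1, which promotes p53 phosphorylation and autophagy, had another pattern: 1013 with both drugs, 758 with hydroxyurea, 755 with MS-275 and 279 in untreated cells. Each drug alone was 1.44 above untreated cells on the log2 scale and both together 1.86. Nearest to additivity among the listed targets were DRAM1 and PMAIP1, which encodes NOXA, with PMAIP1 at 0.00. GDF15 was at -0.38 and BBC3, which encodes the BH3-only protein PUMA, at -0.47. So the p53 targets did not share 1 pattern.

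TP53INP1 is one of a group in which each drug alone gave a level above that of untreated cells, and both together fell short of the sum. TP53INP1 was higher with both drugs than with either. In JUN, CPA4, GSTT2, GSTT2B, JUNB and TIMP1 the level with both drugs was below that of the stronger drug alone. JUN, the AP-1 subunit, had 204 with both drugs, 154 with hydroxyurea, 208 with MS-275 and 78.4 in untreated cells. CPA4, a carboxypeptidase, had 411 with both drugs, 587 with hydroxyurea, 392 with MS-275 and 242 in untreated cells. GSTT2, a glutathione transferase, had 426 with both drugs, 457 with hydroxyurea, 323 with MS-275 and 157 in untreated cells. In these genes untreated cells were the low array. The near-identical copy GSTT2B had 576 with both drugs, 650.2 with hydroxyurea, 493 with MS-275 and 272 in untreated cells, and as probes may be shared the pair counts once. JUNB had 615 with both drugs, 626 with hydroxyurea, 715 with MS-275 and 424 in untreated cells. TIMP1, an inhibitor of metalloproteinases, had 1498 with both drugs, 1441 with hydroxyurea, 1545 with MS-275 and 960.1 in untreated cells, and NDRG1, a stress gene of the hypoxia list, was at -0.63. Of these, TIMP1 had its 3 treated arrays closest to each other.

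In other genes of this kind both drugs were higher than either, though by less than the sum. LAMP3, a lysosomal membrane protein, had 454 with both drugs, 246 with hydroxyurea, 249 with MS-275 and 68.0 in untreated cells. FGF18, a growth factor, had 299.7 with both drugs, 188 with hydroxyurea, 233 with MS-275 and 80.3 in untreated cells. SNAI2, which encodes the transcription factor SLUG, had 949 with both drugs, 177 with hydroxyurea, 540.0 with MS-275 and 65.7 in untreated cells. In untreated cells these 3 were below the intensity of the filter, and with an offset of 16 added to every intensity the non-additivity of SNAI2 was -0.45. NDRG4 and SULF2 were of the same kind, at -0.86 and -0.80. LRP1, an endocytic receptor, was instead near the level of each drug, with 189 with both drugs, 199 with hydroxyurea, 167 with MS-275 and 102 in untreated cells.

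Of 32 immediate early genes and feedback genes of MAPK signalling, 4 lay below additivity, against 1.57% of all genes. Above it lay 0, against 2.72%, and the median was -0.13. Besides JUN and JUNB these were ATF3, which had 136 with both drugs, 140.4 with hydroxyurea, 107 with MS-275 and 71.5 in untreated cells, and KLF2, which had 219.7 with both drugs, 223 with hydroxyurea, 306 with MS-275 and 186 in untreated cells. For KLF2 the MS-275 array was the high one. FOS was not a member, at 0.25, and EGR1 was at -0.05. KLF4 and KLF5 were nearest to 0, KLF4 at 0.02.

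Another pattern was a gene that was high with MS-275 alone. KRT19, a keratin of simple epithelia, had 628 with both drugs, 552 with hydroxyurea, 1083 with MS-275 and 571 in untreated cells. VGF, a neuropeptide precursor, had 178 with both drugs, 113 with hydroxyurea, 318 with MS-275 and 108 in untreated cells. RCAN2, a regulator of calcineurin, had 322 with both drugs, 96.8 with hydroxyurea, 437 with MS-275 and 72.9 in untreated cells. With MS-275 present, hydroxyurea gave a lower level of each, by 0.79 for KRT19, 0.84 for VGF and 0.44 for RCAN2 on the log2 scale. In VGF and RCAN2 no array stood apart, and both drugs were still above hydroxyurea alone. KRT19 and FXYD3 were the members among 23 epithelial genes, which is 8.70% below additivity, against 1.57% of all genes. The list median was -0.06, and KRT18 and KRT8 were at -0.16 and -0.06. SPRR2A and LCE3B, genes of the cornified envelope, and the homeobox gene LHX3 were also high with MS-275 alone, at -0.72, -0.69 and -0.88, with intensities near the filter for SPRR2A and LHX3. ESPN, which bundles actin, CLDN15, a claudin, MLXIPL, which encodes the glucose sensor ChREBP, CSKMT and ZNF274 were highest with MS-275 alone as well, at -0.80, -0.69, -0.75, -0.86 and -0.75. In CLDN15, CSKMT and ZNF274 the MS-275 array stood apart, but in ESPN and MLXIPL it was untreated cells, as the low array.

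In a last pattern the level with both drugs was below that of either drug. COX5B, a subunit of cytochrome c oxidase, had 173 with both drugs, 247 with hydroxyurea, 236 with MS-275 and 184 in untreated cells. TIMM8B, a chaperone of mitochondrial import, had 156 with both drugs, 254 with hydroxyurea, 259 with MS-275 and 241 in untreated cells. COX8A, another subunit of the oxidase, had 1616 with both drugs, 2437 with hydroxyurea, 2072 with MS-275 and 1542 in untreated cells. For COX5B and TIMM8B the array with both drugs stood apart, whereas for COX8A the hydroxyurea array did. COX5B and COX8A were 2 of 23 respiratory chain genes past the filter, which is 8.70% below additivity, against 1.57% of all genes. The other 21 were not members, and the median of the 23 was -0.01. TTC31 had 80.6 with both drugs, 144 with hydroxyurea, 122 with MS-275 and 111 in untreated cells, and the gene of neuroglobin, NGB, had 64.5 with both drugs, 112 with hydroxyurea, 104 with MS-275 and 101 in untreated cells. Another, dimmer cluster of NGB was at 0.13, opposite in sign. IFITM2, an antiviral membrane protein, had 829.7 with both drugs, 1309 with hydroxyurea, 1064 with MS-275 and 1012 in untreated cells. It was the 1 member among 14 interferon response genes, which is 7.14% below additivity, against 1.57% of all genes. ADIRF, MEX3D, MYADM and ZNF513 also had their lowest level with both drugs, at -0.78, -0.84, -0.68 and -0.67. ATF5, a transcription factor of the integrated stress response, was low with both drugs and with MS-275 alike, with 126 with both drugs, 338 with hydroxyurea, 139.5 with MS-275 and 219 in untreated cells.

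MicroRNA genes were frequent among the members, with 12 above and 18 below additivity of 188 past the filter, which is 6.38% and 9.57%. Protein-coding genes gave 183 and 91 of 7093, which is 2.58% and 1.28%. The array reads the transcript at the microRNA locus, and mature microRNA was not measured. Mature sequences of 26 of the 30 were listed in RefSeq, and no seed was shared between them. Those of 6 named members are shown with the seed, bases 2 to 8, in capitals (GRCh38.p14). They were picked after their values had been seen, as the highest member, MIR891A, a low one, MIR3159, and well-known microRNAs.
hsa-miR-891a-5p: uGCAACGAaccugagccacuga (chrX:146027841-146027862, minus strand)
hsa-miR-107: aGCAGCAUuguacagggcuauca (chr10:89592756-89592778, minus strand)
hsa-miR-3159: uAGGAUUAcaagugucggccac (chr11:18387796-18387817, plus strand)
hsa-miR-24-3p: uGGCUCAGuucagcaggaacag (chr19:13836289-13836310, minus strand)
hsa-miR-21-5p: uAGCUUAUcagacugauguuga (chr17:59841273-59841294, plus strand)
hsa-miR-221-3p: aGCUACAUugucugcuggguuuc (chrX:45746180-45746202, minus strand)

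MIR891A had 209 with both drugs, 172 with hydroxyurea, 124 with MS-275 and 283 in untreated cells, and its non-additivity of 1.47 was the highest of all members. MIR612 had 323 with both drugs, 301 with hydroxyurea, 434 with MS-275 and 140.4 in untreated cells, and at -1.53 it was the lowest. MIR21 had 177 with both drugs, 250.4 with hydroxyurea, 314 with MS-275 and 245 in untreated cells. Both drugs gave the lowest level of MIR21, and the same held for MIR221, which had 335 with both drugs, 772 with hydroxyurea, 488 with MS-275 and 705 in untreated cells. MIR107 lay above additivity, with 102 with both drugs, 74.8 with hydroxyurea, 89.6 with MS-275 and 108 in untreated cells. For MIR24-2 and MIR3159 the MS-275 array stood apart, as the high one. MIR24-2 had 118 with both drugs and 119 in untreated cells, and MIR3159 had 203 with both drugs and 204 in untreated cells. Of the 30 microRNA members, 25 lay inside another gene of the annotation, and for 9 of these that gene was past the filter. It had the same sign as the microRNA in 7 of the 9 and was itself a member in 1, SIPA1, which holds MIR4489. VMP1, whose interval holds MIR21, was at 0.09, and GDF15, which holds MIR3189, at -0.38, against -0.90 for MIR3189.

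Clusters of the same gene were compared where there were several. The array held 35 further clusters for 24 of the members. Of these, 16 passed the filter and all 16 had the sign of the member, 4 of them past 1.5-fold. However, 10 of the 16 belong to F8A1 and IFITM4P, some with identical values, so that the 16 are 11 distinct measurements, while among the 19 dimmer ones 11 had it. USP17L12 and the pseudogene USP17L9P had identical values on all 4 arrays, 219 with both drugs, 80.1 with hydroxyurea, 134 with MS-275 and 86.9 in untreated cells, and are 1 measurement counted under 2 names. PDCD4 lay above additivity, at 0.64, and its antisense partner PDCD4-AS1 below it, at -0.89. CEP192P1, a pseudogene whose probes may read its parent gene, was at 0.72. When the 4 intensities were combined without logs, 207 of the 208 genes above and 117 of the 120 below departed from additivity in the same direction. These are the intensities that chose the members, and where 1 array deviates both scales give the same direction. The count is therefore no separate check.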

How the data were processed

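RNA of HCT116 cells was measured on 1 Human Gene 2.0 ST array per condition, 4 in all. The authors deposited linear intensity values per transcript cluster after RMA (background correction, quantile normalization and probe summary). The software version is not given in the sources used here. Intensities were taken as log2 without an offset. Of 53617 clusters, 16098 had 1 gene symbol in the platform annotation, and the brightest cluster stood for each of 14884 genes. Genes with a mean log2 of at least 6.5, an intensity of 90.5, were kept, and members lay at least 1.5-fold from additivity. The members and gene lists were chosen with earlier results of these data known. Named by rule were the 25 highest and 25 lowest members (small RNAs, antisense, uncharacterised and pseudogene symbols left out), up to 6 members and 2 genes nearest to 0 per list, up to 8 members per array standing apart, and 3 genes on each side of each threshold. Other genes, the microRNAs and the families by symbol were named after their values were seen. Alternatives were other filters, a 2-fold threshold, the mean of a gene's clusters, median centring, renewed quantile normalization, an offset of 16, linear additivity, and another rule for standing apart. Promoters and microRNAs came from RefSeq (GRCh38.p14). The calculation was tested on simulated data. Python 3.11.15, numpy 2.4.6, pandas 2.3.3 and matplotlib 3.10.9 were used. With 4 arrays and no replicates, the number of arrays limits the precision and no test was possible.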

Additional observations from a re-analysis of the deposited data

Results flagged for a closer look

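In 26 members the difference made by 1 drug had opposite signs with and without the other drug, each at least 1.3-fold. The 15 of them that the naming rule covers are given here, and the other 11, most of them small RNAs, are not. This size was chosen after the values were seen, and the difference was not tested, since each condition has 1 array. Values are log2, and the change between the 2 differences is the non-additivity.

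The difference of MS-275 was positive with hydroxyurea and negative without it in KIF14 (0.49 with, -0.63 without, a change of 1.116), NEK2 (0.48 and -0.53, 1.003) and TTK (0.39 and -0.59, 0.9788). It was negative with hydroxyurea and positive without it in CPA4 (-0.51 and 0.69, -1.208), COX8A (-0.59 and 0.43, -1.019), CSKMT (-0.39 and 0.47, -0.8601) and PTAFR (-0.41 and 0.40, -0.8178).

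The difference of hydroxyurea was positive with MS-275 and negative without it in KIF14 (0.70 with, -0.42 without, 1.116), TYW1B (0.49 and -0.62, 1.109), TYW1 (0.51 and -0.55, 1.066), ZNF808 (0.55 and -0.44, 0.9897), SGO2 (0.57 and -0.39, 0.9641), FNIP2 (0.52 and -0.39, 0.9093) and GPSM2 (0.42 and -0.44, 0.8641). It was negative with MS-275 and positive without it in COX5B (-0.44 and 0.42, -0.8672) and RCAN2 (-0.44 and 0.41, -0.8472). TYW1 and TYW1B are near-identical copies and may be 1 measurement.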

How the results depend on the processing

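The counts depended most on the filter and the threshold. Without a filter on dim genes 620 lay above and 620 below additivity, with a filter at the 75th percentile 93 above and 44 below, and at a 2-fold threshold 13 above and 13 below. When the other 3 arrays had to lie within 1.5-fold of each other, members with no array apart numbered 45 above and 22 below. Centring gave 216 above and 119 below, renewed quantile normalization 190 and 128, an offset of 16 181 and 99, and the mean of clusters 200 and 111. Of the 208 genes above, 208 remained with centring, 190 with quantile normalization, 160 with the offset and 198 with the mean of clusters. Of the 120 below, 119, 117, 89 and 111 remained in the same order. None of the 111 members named by rule changed sign under these 4 settings, and genes outside that rule, such as those near 0, were not followed. Of the 111, 12 fell inside 1.5-fold with the offset, among them ATF3, SNAI2, NDRG1, CDC25A and RAD51AP1, 4 with the mean of clusters (NGB, MEX3D, MYADM and CHEK2) and 1 with quantile normalization (IL18). No paired analysis was possible because each condition has 1 array and no result comes from a test.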

Other observations

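Of 37519 clusters without a single gene symbol, 9225 passed the filter, and 473 lay at least 1.5-fold above and 493 below additivity. Both are larger shares than the 2.72% above and 1.57% below among genes with a symbol. Unlike those genes, these clusters were not more often above additivity than below it. These clusters were not analysed further.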
